A study of Mus musculus with 6 samples.

Results

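The genes described here encode the extracellular matrix of TC-1/A9 tumour cells and the proteins that cross-link, cleave and bind it, together with markers that tell mesenchymal from epithelial cells. They were chosen by symbol as 45 genes of known function, of which 31 had a probe named here, out of 7807 genes in all. TC-1/A9 is an MHC class I-deficient mouse line, obtained from tumours that TC-1 cells formed in immunized mice, and TC-1 cells derive from C57BL/6 lung cells carrying the human papillomavirus type 16 oncogenes E6 and E7 and an activated Ha-ras. RNA of TC-1/A9 cells cultured with IFNγ (50 U/ml for 24 h by the labels, a higher dose by the paper's account) and of untreated TC-1/A9 cells was measured on 6 Illumina WG6 arrays for the mouse, 3 in each group. The series calls the 3 samples of a group biological replicates, all come from 1 cell line, and both groups carry the same oncogenes, so other lines and tumours in vivo were not examined. In culture extracts, a smaller share of expressing cells and less RNA per cell cannot be told apart.

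Cells of mesenchymal character secrete collagens that are hydroxylated and folded in the endoplasmic reticulum, cross-linked by lysyl oxidases outside the cell and remodelled by metalloproteinases, whose activity is held in check by TIMPs. Integrins bind this matrix and pass its tension on to the cytoskeleton, where YAP, SRF and TGFβ signalling control matricellular genes such as Ccn2 (connective tissue growth factor, Ctgf) and Ccn1 (Cyr61). Snai1, Zeb1 and Twist1 are transcription factors that repress epithelial junction genes.

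After IFNγ, 0 of the 31 matrix, adhesion and mesenchymal genes passed the test in either direction. The comparison used limma on quantile normalized log2 signals of 13545 probes, with 1 probe per gene (the brightest), Benjamini-Hochberg adjustment over these probes and a false discovery rate (FDR) below 0.01. Over all tested probes, 1.04% were called higher (141 of 13545) and 0.0148% lower (2 of 13545), and over all named genes 1.27% higher (99 of 7807) and 0.0256% lower (2 of 7807). The smallest adjusted p among the 31 genes was 0.259, for Snai1. At an unadjusted p under 0.05, 2 of the 31 were lower (Ccn2 and Snai1) and 0 higher, where 4.07% of all genes were lower and 4.42% higher. The 31 log2 fold changes ran from -0.41 for Ccn2 to 0.31 for Fn1, 17 below 0 and 14 above, where 53.8% of all genes were below 0. Their median was -0.02, as was the median over all genes. Each of the 31 95% intervals lay within 1 of 0 on the log2 scale, the outermost bounds being -0.70 and 0.81, as did 98.9% of the intervals of all genes. At this precision a change of 2-fold in either direction was outside the interval of every one of these genes and the intervals of all but Ccn2 and Snai1 included 0. The probes of 30 of the 31 genes were detected on all 6 arrays, as were those of 6934 of all 7807 genes. The probe of Col6a2 was detected on 1 of 3 IFNγ arrays and 2 of 3 untreated arrays.

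Known targets of IFNγ were higher in the IFNγ group. All 7 measured genes of a list of 8 known IFNγ targets were called higher. Among them were Irf1, a transcription factor, with a log2 fold change of 2.80 (SE 0.13, adjusted p = 6.44e-09, limma), and Gbp2, a guanylate-binding protein, with 6.72 (SE 0.15, adjusted p = 2.25e-12, limma). Tap1, Psmb8 and Psmb9 of this list were detected on none of the untreated arrays, so their probes were kept only through the IFNγ arrays. The list was chosen with earlier results of these data known. IFNγ replicate 3 stood apart from the other arrays. Its log2 signals correlated at r = 0.986 and 0.984 with IFNγ replicates 1 and 2, which correlated with each other at 0.995, and the untreated arrays correlated among themselves at 0.993 to 0.996. Its number of detected probes (12165) lay within the range of all arrays, 11504 to 12423.

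Many of the matrix genes were higher on that array than on the other IFNγ arrays. In 21 of the 31 genes IFNγ replicate 3 had the highest signal of the 3 IFNγ arrays, as it did in 42.0% of all genes. The median difference between IFNγ replicate 3 and the mean of IFNγ replicates 1 and 2 was 0.40 on the log2 scale over the 31 genes and 0.00 over all genes. Set against the mean of the untreated arrays, the median of the 31 genes was -0.13, -0.15 and 0.14 on IFNγ replicates 1, 2 and 3, and -0.06, 0.02 and 0.02 on untreated replicates 1, 2 and 3. IFNγ replicates 1 and 2 thus lay below all 3 untreated arrays and IFNγ replicate 3 above them. The median over all genes stayed between -0.02 and 0.00 on every array. Quantile normalization gives all arrays the same distribution of signals, so medians near 0 over all genes were largely fixed in advance. The median SD of a gene was 0.27 among the 3 IFNγ arrays and 0.15 among the 3 untreated arrays, against 0.15 and 0.10 over all genes. The reason why this array differs was not tested, and results are therefore given with and without it.

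**Figure D1:**
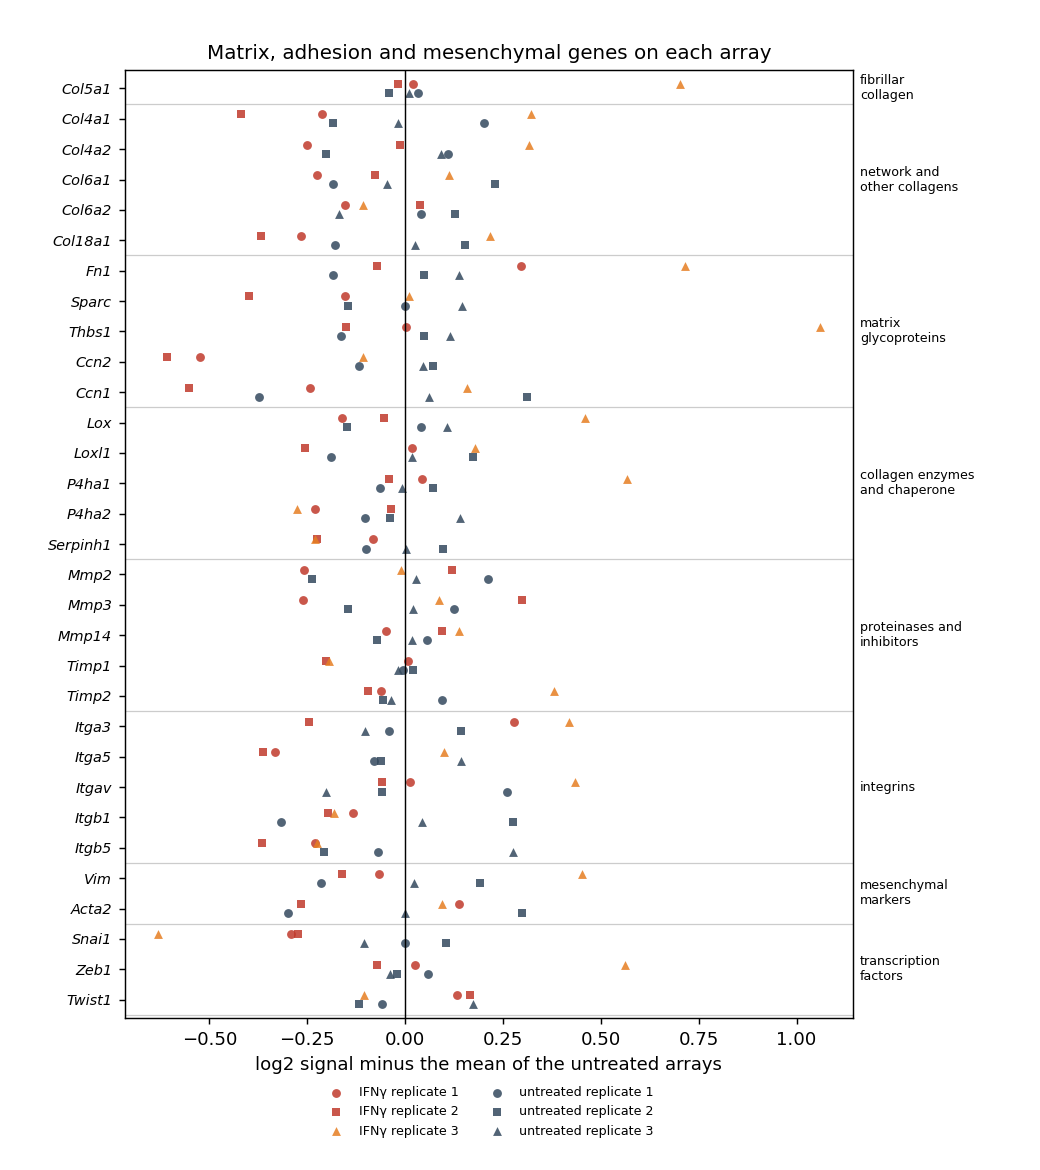
Log2 signal of each of the 31 genes on each array, minus the mean of that gene's 3 untreated arrays, with genes down the page by role. Colours mark IFNγ replicates 1 and 2 (red), IFNγ replicate 3 (orange) and untreated arrays (blue), and IFNγ replicate 3 lies right of the other IFNγ arrays in 21 of 31 genes.

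Without IFNγ replicate 3, 1 of the 31 genes, Ccn2, passed the test and was lower, and 0 were higher, where 0.0512% of all genes (4 of 7807) and 0.0443% of all probes (6 of 13545) were called lower and 1.50% of all genes higher. Of the 31 log2 fold changes, 24 were then below 0 and 7 above, with a median of -0.11 and a range of -0.57 to 0.15, beside 56.1% below 0 and a median of -0.02 over all genes. Groups did not overlap in 8 genes, all lower after IFNγ (Col4a1, Col18a1, Sparc, Ccn2, Timp2, Itga5, Itgb5 and Snai1), where 1014 of all 7807 genes were lower without overlap and 759 higher (over all tested probes, 12.1% lower and 9.53% higher). With all 6 arrays, 2 genes (Itgb5 and Snai1) were lower without overlap and 0 higher, beside 7.26% and 6.44% of all genes.

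**Figure D2:**
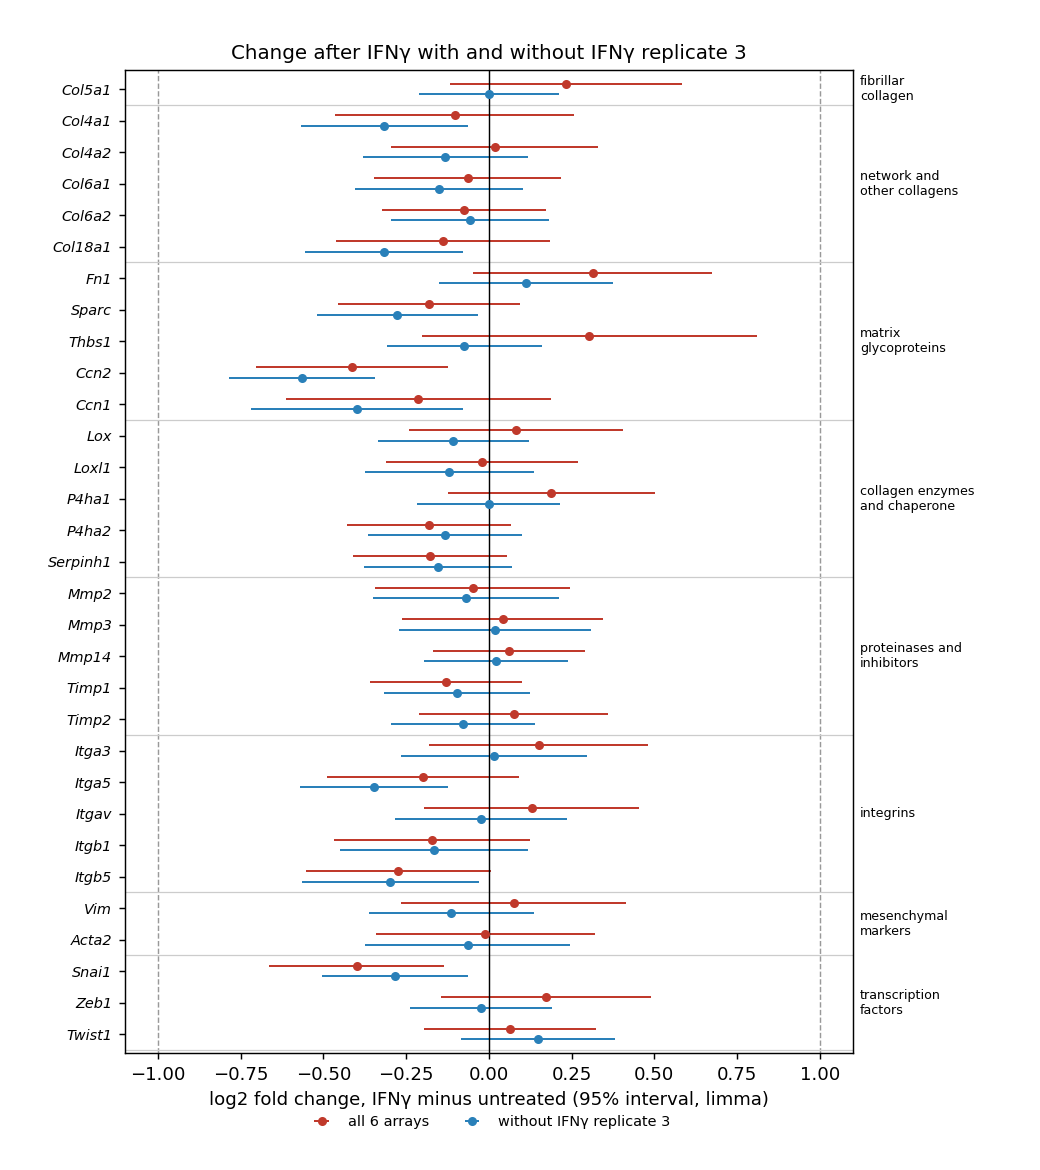
Log2 fold change of each gene, IFNγ minus untreated, with its 95% interval from limma, over all 6 arrays (red) and without IFNγ replicate 3 (blue). The dashed lines mark changes of 1 on the log2 scale, and every interval from all 6 arrays lies between them.

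Among the matricellular proteins, which are secreted into the matrix and signal to cells rather than build fibres, the change of Ccn2 was the lowest of the 31. Its log2 signals were 9.91, 9.82 and 10.32 in IFNγ replicates 1, 2 and 3, against 10.31, 10.50 and 10.48 in untreated replicates 1, 2 and 3. IFNγ replicates 1 and 2 were below every untreated array, and IFNγ replicate 3 just overlapped the lowest of them. Ccn2 averaged 10.02 ± 0.27 after IFNγ and 10.43 ± 0.10 in untreated cells (SD, n = 3 each), which gave a log2 fold change of -0.41 (95% interval -0.70 to -0.12, SE 0.13, adjusted p = 0.319, limma). Without IFNγ replicate 3 it fell by 0.57 on the log2 scale (95% interval -0.79 to -0.34, SE 0.11, adjusted p = 0.00351, limma), a ratio of 0.676. A second, dimmer Ccn2 probe had 8.20, 7.94 and 8.50 after IFNγ, against 8.61, 8.44 and 8.47 in untreated cells. IFNγ replicates 1 and 2 were again below every untreated array and IFNγ replicate 3 lay among them, and the log2 fold change was -0.29 (adjusted p = 0.638, limma) and, without IFNγ replicate 3, -0.44 (adjusted p = 0.0518, limma), which did not pass.

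Ccn1, the paralogue of Ccn2, was read by 3 probes that differed in spread. The brightest had 9.49, 9.18 and 9.90 after IFNγ, against 9.36, 10.05 and 9.80 in untreated cells, with groups that overlapped and a log2 fold change of -0.21 (adjusted p = 0.789, limma), or -0.40 without IFNγ replicate 3 (adjusted p = 0.417, limma). The second had 8.49, 8.56 and 8.63 after IFNγ, against 8.92, 8.95 and 8.84 in untreated cells. Here each IFNγ array, replicate 3 included, was below each untreated array, with a log2 fold change of -0.34 (SE 0.10, adjusted p = 0.249, limma) and of -0.38 without IFNγ replicate 3 (adjusted p = 0.0843, limma). The third and dimmest also did not overlap, at 6.74, 6.67 and 6.64 after IFNγ and 6.92, 6.88 and 6.80 in untreated cells, a log2 fold change of -0.18 (adjusted p = 0.695, limma) and of -0.16 without IFNγ replicate 3. None of the 3 Ccn1 probes passed the test. The further probes of Ccn1 and Ccn2 were singled out after their values were seen.

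The log2 fold changes of the other matrix glycoproteins differed in sign, and none passed the test. Fibronectin (Fn1), which integrins assemble into fibrils, had 9.26, 8.89 and 9.68 after IFNγ, against 8.78, 9.01 and 9.10 in untreated cells. The groups overlapped, and the log2 fold change, the highest of the 31, was 0.31 (95% interval -0.05 to 0.67, adjusted p = 0.679, limma) and 0.11 without IFNγ replicate 3. Thrombospondin 1 (Thbs1), which can activate latent TGFβ, had 8.13, 7.98 and 9.19 after IFNγ, against 7.97, 8.18 and 8.25 in untreated cells. Only IFNγ replicate 3 lay above the untreated arrays, and the log2 fold change of 0.30 (95% interval -0.20 to 0.81, adjusted p = 0.771, limma) became -0.07 without it. Sparc, a collagen-binding glycoprotein, had log2 fold changes of -0.18, -0.28 and -0.08 on its 3 probes, in order of brightness, and of -0.28, -0.23 and -0.06 without IFNγ replicate 3, of which none passed.

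**Figure D3:**
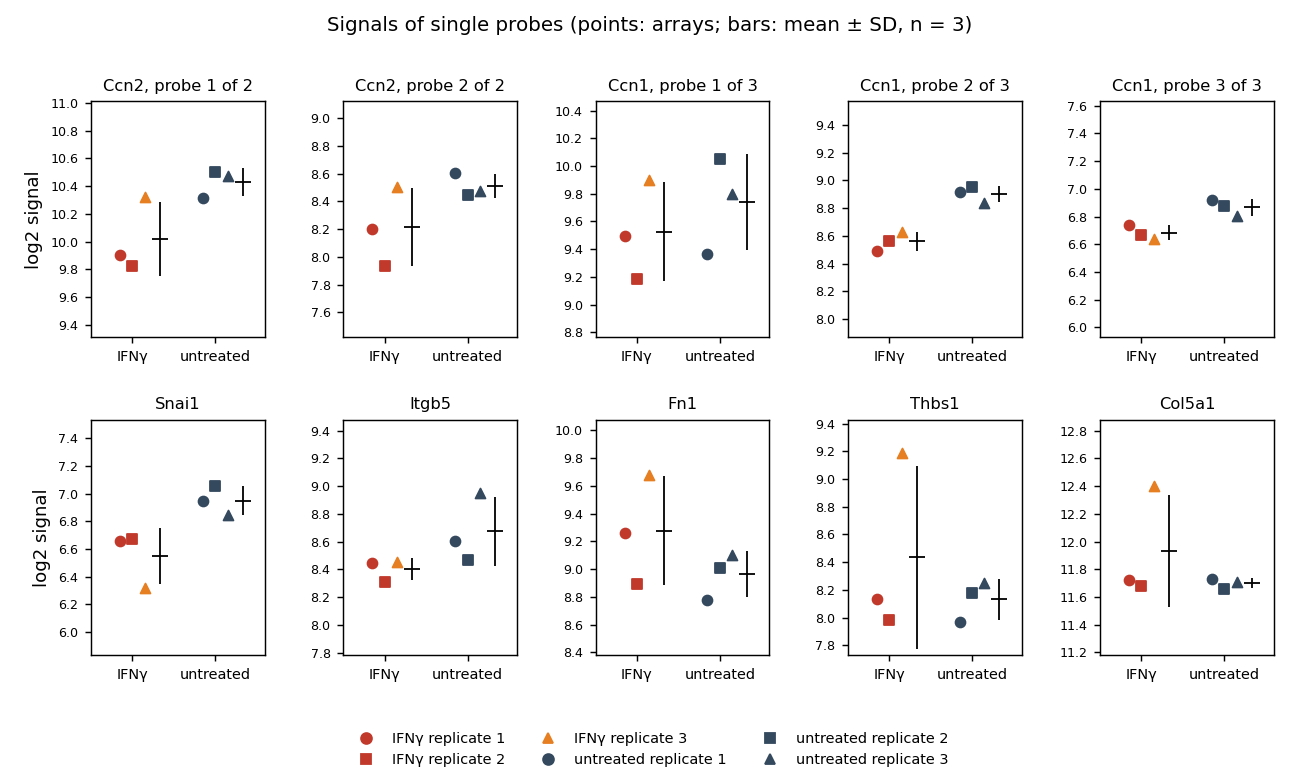
Log2 signal of single probes of Ccn2, Ccn1, Snai1, Itgb5, Fn1, Thbs1 and Col5a1 on each array, IFNγ left and untreated right, each panel with its own axis that does not start at 0. Bars give the mean ± SD of 3 arrays. IFNγ replicate 3 (orange) is the lowest IFNγ array of Snai1 and of the dimmest Ccn1 probe, and the highest in every other panel.

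Of the collagens, 6 of 10 had a probe named here and none passed the test. Col5a1, a minor fibrillar chain that helps to start collagen I fibrils, had 11.72, 11.68 and 12.40 after IFNγ, against 11.73, 11.66 and 11.71 in untreated cells. The first 2 IFNγ arrays lay among the untreated ones and IFNγ replicate 3 above all of them, so that its log2 fold change was 0.23 (adjusted p = 0.752, limma) with this array and 0.00 (95% interval -0.21 to 0.21) without it. Col1a1, Col1a2, Col3a1 and Col5a2 had no probe named here, so the major fibrillar collagens were not examined. Col4a1, a chain of the basement membrane network, had 9.57, 9.36 and 10.10 after IFNγ, against 9.98, 9.59 and 9.76 in untreated cells. Its log2 fold change was -0.10 (adjusted p = 0.898, limma) and, without IFNγ replicate 3, -0.32 (adjusted p = 0.414, limma). Its partner chain Col4a2, which is transcribed from the same promoter region in the opposite direction, had log2 fold changes of 0.02 and, without that array, -0.13. Col18a1, the basement membrane collagen that holds endostatin, had 8.72, 8.62 and 9.20 after IFNγ, against 8.80, 9.14 and 9.01 in untreated cells. IFNγ replicates 1 and 2 were below all untreated arrays and IFNγ replicate 3 above them, and the log2 fold change was -0.14 (adjusted p = 0.841, limma) and -0.32 without that array (adjusted p = 0.335, limma). Col6a1 and Col6a2, chains of the beaded filaments of collagen VI, had log2 fold changes of -0.06 and -0.07, and of -0.15 and -0.06 without IFNγ replicate 3.

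The genes that modify and fold collagen did not pass either, and 5 of 6 had a probe named here, Loxl2 being the exception. P4ha1, a catalytic subunit of prolyl 4-hydroxylase, had 6.99, 6.91 and 7.52 after IFNγ, against 6.89, 7.02 and 6.94 in untreated cells. IFNγ replicate 3 alone stood above the rest, and the log2 fold change of 0.19 (adjusted p = 0.771, limma) became 0.00 without it. Lox, the lysyl oxidase that cross-links collagen and elastin, had 9.21, 9.32 and 9.83 after IFNγ, against 9.41, 9.22 and 9.48 in untreated cells, with log2 fold changes of 0.08 and, without IFNγ replicate 3, -0.11. In P4ha2 and in Serpinh1, the collagen chaperone HSP47, IFNγ replicate 3 was instead the lowest IFNγ array. Both had a log2 fold change of -0.18 (adjusted p = 0.723 and 0.707, limma), or -0.13 and -0.15 without IFNγ replicate 3. Their second probes had 0.01 and -0.01, and without that array 0.17 and 0.03. Loxl1, another lysyl oxidase, had -0.02 and, without that array, -0.12.

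Among the metalloproteinases and their inhibitors, log2 fold changes ran from -0.13 for Timp1 to 0.08 for Timp2 and none passed the test. Mmp2, a gelatinase, had 11.42, 11.79 and 11.66 after IFNγ, against 11.89, 11.44 and 11.70 in untreated cells, a log2 fold change of -0.05 (95% interval -0.34 to 0.25) and of -0.07 without IFNγ replicate 3. Mmp14, the membrane-bound proteinase that activates pro-Mmp2 with the help of Timp2, had 11.46, 11.60 and 11.65 after IFNγ, against 11.56, 11.44 and 11.53 in untreated cells. The groups overlapped, with a log2 fold change of 0.06 (95% interval -0.17 to 0.29), or 0.02 without that array. Mmp3, stromelysin 1, was read by 3 probes with log2 fold changes of 0.04, 0.03 and 0.11, all with overlapping groups, and of 0.02, 0.01 and 0.05 without that array. Timp2 had 11.17, 11.14 and 11.62 after IFNγ, against 11.33, 11.18 and 11.20 in untreated cells, with IFNγ replicate 3 above and the other IFNγ arrays below all untreated arrays. Its log2 fold change of 0.08 turned to -0.08 without IFNγ replicate 3. Timp1 had -0.13 (adjusted p = 0.779, limma) and, without that array, -0.10, and Timp3 had no probe named here.

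Of the integrins, 5 of 6 were measured, without Itga6, and none passed. Itgb5, the beta chain that pairs with αv to bind vitronectin, had 8.44, 8.31 and 8.45 after IFNγ, against 8.61, 8.47 and 8.95 in untreated cells. Every IFNγ array was below every untreated array, by a narrow margin, with a log2 fold change of -0.27 (95% interval -0.55 to 0.01, adjusted p = 0.644, limma) and -0.30 without IFNγ replicate 3 (adjusted p = 0.549, limma). Itga5, the alpha chain of the fibronectin receptor, had 7.93, 7.90 and 8.36 after IFNγ, against 8.18, 8.20 and 8.40 in untreated cells. IFNγ replicates 1 and 2 were below and IFNγ replicate 3 among the untreated arrays, with log2 fold changes of -0.20 (adjusted p = 0.745, limma) and, without that array, -0.35 (adjusted p = 0.176, limma), while its second, dimmer probe had -0.03 and -0.12. Itga3, the alpha chain of a laminin receptor, had 9.19, 8.66 and 9.33 after IFNγ, against 8.87, 9.05 and 8.81 in untreated cells, a log2 fold change of 0.15 (adjusted p = 0.830, limma) that was 0.02 without IFNγ replicate 3. Itgav, the αv chain, had 0.13 and, without that array, -0.02, so its sign changed, while that of Itga3 did not. Itgb1, the beta chain shared by most matrix receptors, had -0.17 (adjusted p = 0.773, limma) and, without that array, -0.16.

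The 2 mesenchymal markers measured, Vim and Acta2, were detected on all 6 arrays, as were 6934 of all 7807 genes. Probes detected on no array had been removed, so detection was partly set in advance. Vimentin (Vim), the intermediate filament of mesenchymal cells, had 13.14, 13.04 and 13.65 after IFNγ, against 12.99, 13.39 and 13.22 in untreated cells. Its log2 fold change was 0.08 (95% interval -0.26 to 0.41, adjusted p = 0.924, limma) and -0.11 without IFNγ replicate 3. Smooth muscle actin (Acta2) had 4 probes with log2 fold changes between -0.07 and 0.08, all with overlapping groups, and between -0.06 and 0.00 without IFNγ replicate 3. Cdh2 and Tagln had no probe named here, nor did the epithelial markers Cdh1, Krt8, Krt18, Krt19 and Epcam, so that of the 45 genes only mesenchymal ones were measured for this comparison.

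Among the transcription factors the log2 fold changes also differed in sign, and none passed the test. Snai1 had 6.66, 6.67 and 6.32 after IFNγ, against 6.95, 7.05 and 6.84 in untreated cells. Every IFNγ array was below every untreated array, and, unlike in most of the 31 genes, IFNγ replicate 3 was the lowest. The mean was 6.55 ± 0.20 after IFNγ and 6.95 ± 0.10 in untreated cells (SD, n = 3 each), which gave a log2 fold change of -0.40 (95% interval -0.66 to -0.13, SE 0.12, adjusted p = 0.259, limma), which was -0.28 without IFNγ replicate 3 (adjusted p = 0.385, limma). Zeb1 had 8.53, 8.43 and 9.06 after IFNγ, against 8.56, 8.48 and 8.46 in untreated cells, with log2 fold changes of 0.17 (adjusted p = 0.783, limma) and, without IFNγ replicate 3, -0.02. Twist1 had 8.56, 8.59 and 8.32 after IFNγ, against 8.37, 8.31 and 8.60 in untreated cells, a log2 fold change of 0.06 (95% interval -0.20 to 0.32) and of 0.15 without IFNγ replicate 3 (95% interval -0.08 to 0.38).

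The 250 bases before the start of Ccn1, Snai1 and Itgb5 are shown because these genes had probes with every IFNγ array below every untreated array. The sequences are those of RefSeq on GRCm38.p6, where 24 of the 31 genes had an entry, with 27 promoters. Capitals mark the letters CATTCC, the reverse complement of the TEAD motif GGAATG, at -103 to -98 in Ccn1 (chr3:145649986-145650235, minus strand). They mark CACCTG, the reverse complement of the E2-box CAGGTG to which Snail and Zeb factors bind, at -126 to -121 in Snai1 (chr2:167537945-167538194, plus strand) and at -109 to -104 in Itgb5 (chr16:33829415-33829664, plus strand).
Ccn1: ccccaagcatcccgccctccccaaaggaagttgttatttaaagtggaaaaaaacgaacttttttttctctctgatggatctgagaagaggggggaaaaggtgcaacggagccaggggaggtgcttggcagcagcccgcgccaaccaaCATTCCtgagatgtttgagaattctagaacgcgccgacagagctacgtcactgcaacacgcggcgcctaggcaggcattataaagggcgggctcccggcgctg
Snai1: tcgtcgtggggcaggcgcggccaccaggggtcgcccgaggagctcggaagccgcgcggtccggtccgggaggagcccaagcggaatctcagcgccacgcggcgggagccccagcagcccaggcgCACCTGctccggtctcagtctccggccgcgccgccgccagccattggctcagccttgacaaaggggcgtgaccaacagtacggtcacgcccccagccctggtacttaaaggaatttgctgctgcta
Itgb5: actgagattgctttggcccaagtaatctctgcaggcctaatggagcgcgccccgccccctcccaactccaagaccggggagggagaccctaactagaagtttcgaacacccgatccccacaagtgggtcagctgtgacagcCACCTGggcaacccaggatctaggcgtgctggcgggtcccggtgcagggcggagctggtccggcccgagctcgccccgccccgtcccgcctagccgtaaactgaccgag
Positions count back from the start of the gene, with -1 the last base before it, and both strands were searched. GGAATG or CATTCC was present in 6 of the 27 promoters (Acta2, Ccn1, Col18a1, Col6a2, Itgb1 and Timp1) and in 12.6% of all 32851 promoters. CAGGTG or CACCTG was present in 4 of the 27 (Itga3, Itgb5, Snai1 and Timp2) and in 17.2% of all. These motifs do not overlap each other in the 3 sequences shown, and a match describes letters only.

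Further genes of the same pathways were counted in lists outside the 31, and none of them passed the test, with or without IFNγ replicate 3. Their counts without overlap stand beside 6.44% of all genes higher and 7.26% lower with all 6 arrays, and 759 and 1014 of 7807 without that array. Of 33 other matrix proteins measured (76 listed), 0 were higher and 2 lower without overlap, with a median log2 fold change of 0.05. When IFNγ replicate 3 was left out, 2 were higher and 7 lower, and the median was -0.02. Col7a1, the anchoring fibril collagen, had 8.54, 8.60 and 8.83 after IFNγ, against 8.87, 9.13 and 9.11 in untreated cells. Its groups did not overlap, and the log2 fold change was -0.38 (adjusted p = 0.280, limma) and -0.47 without IFNγ replicate 3 (adjusted p = 0.0276, limma), short of the threshold. Of 33 other matrix enzymes and inhibitors (59 listed), 4 were higher and 3 lower without overlap, with a median of -0.04, and the same counts and a median of -0.04 were found without that array. Transglutaminase 2 (Tgm2), which cross-links matrix proteins, had the smallest adjusted p of these lists, with 7.54, 7.33 and 7.76 after IFNγ, against 7.02, 7.05 and 6.93 in untreated cells. Every IFNγ array was above every untreated array, with a log2 fold change of 0.54 (SE 0.12, adjusted p = 0.0491, limma) and of 0.43 without IFNγ replicate 3 (adjusted p = 0.0446, limma). The proteinase Adamts1 had 6.86, 6.99 and 7.44 after IFNγ, against 6.29, 6.60 and 6.62 in untreated cells, likewise without overlap, a log2 fold change of 0.59 (SE 0.15, adjusted p = 0.0995, limma), or 0.42 without that array. Ppib, a proline isomerase that folds collagen, had -0.33 (adjusted p = 0.583, limma) and, without that array, -0.15.

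Of 26 other integrin and focal adhesion genes measured (44 listed), 3 were higher and 2 lower without overlap (6.44% and 7.26% of all genes), with a median of -0.07. Without IFNγ replicate 3, 3 were higher and 8 lower (759 and 1014 of all 7807 genes), with a median of -0.09. Among the genes without overlap on all 6 arrays were paxillin (Pxn), a focal adhesion adaptor, with a log2 fold change of -0.31 (adjusted p = 0.428, limma), the tetraspanin Cd151, with -0.21 (adjusted p = 0.663, limma), and the leukocyte integrin chain Itgb7, with 0.28 (adjusted p = 0.613, limma). These were -0.35, -0.23 and 0.15 without IFNγ replicate 3. Of 32 genes of the TGFβ, YAP and SRF pathways (49 listed), 0 were higher and 3 lower without overlap, with a median of -0.08. By this measure the share of lower genes was near the 7.26% of all genes. At an unadjusted p under 0.05 (limma), 5 of the 32 were lower and 0 higher, beside 4.07% and 4.42% of all genes. No test over the list was made. Without IFNγ replicate 3, 1 was higher and 8 lower, beside 759 and 1014 of all 7807 genes, with a median of -0.07. Tgfb1, the TGFβ ligand, had 7.49, 7.36 and 7.23 after IFNγ, against 7.63, 7.82 and 7.73 in untreated cells. Its groups did not overlap, with IFNγ replicate 3 the lowest, and the log2 fold change was -0.36 (SE 0.11, adjusted p = 0.256, limma) and -0.30 without that array. Tead2, a DNA-binding partner of YAP, had -0.35 (adjusted p = 0.491, limma), and Ccn4, a relative of Ccn2, had -0.13 (adjusted p = 0.774, limma), or -0.20 and -0.18 without that array.

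**Figure D4:**
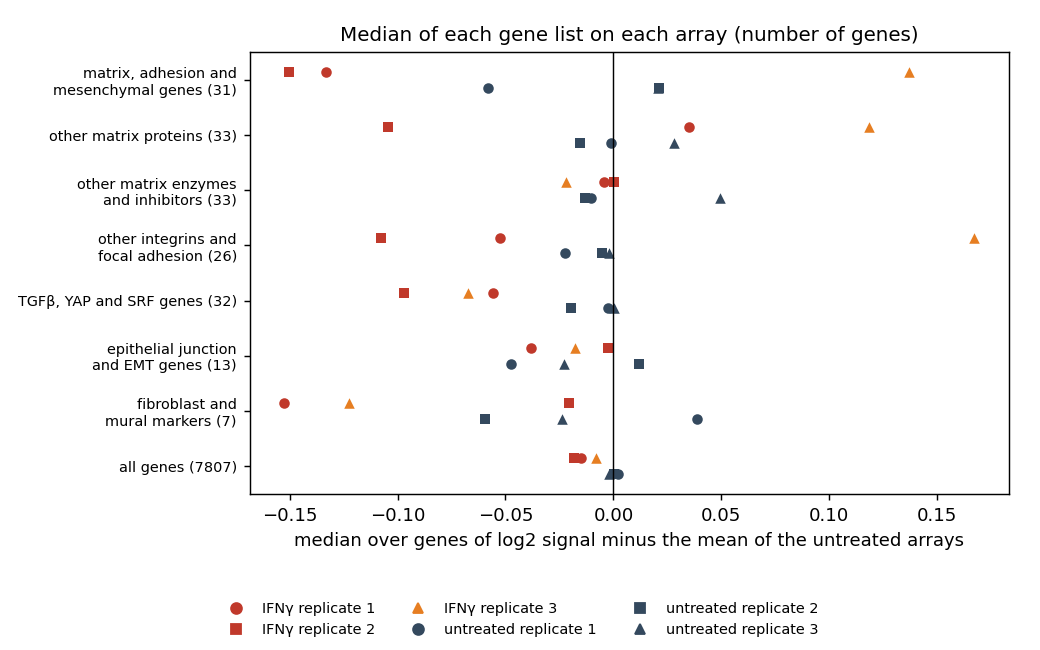
Median over the genes of each list of the log2 signal minus the mean of the untreated arrays, on each array, with the number of genes measured in brackets (in the first row, untreated replicates 2 and 3 coincide at 0.02). The 31 matrix, adhesion and mesenchymal genes and the other integrin and focal adhesion genes have IFNγ replicates 1 and 2 lowest and IFNγ replicate 3 highest. The medians over all genes lie near 0 on all 6 arrays, which quantile normalization largely fixes in advance.

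Of 13 epithelial junction and EMT genes measured (51 listed), none of them a keratin, 2 were higher and 1 lower without overlap (6.44% and 7.26% of all genes), with a median of -0.01. When IFNγ replicate 3 was left out, 3 were higher and 1 lower without overlap, with a median of -0.03. Of all 7807 genes, 759 were then higher and 1014 lower without overlap. Snai2, a relative of Snai1, was at 0.24 (adjusted p = 0.643, limma), α-catenin (Ctnna1) at 0.19 (adjusted p = 0.723, limma) and S100a4 at -0.16 (adjusted p = 0.751, limma), or 0.20, 0.07 and -0.13 without that array. Markers of other cells were sparse on the list of named probes. Of 20 lung epithelial markers, 5 had a named probe (Hopx, Aqp5, Abca3, Pdpn and Sox2), and 1 of these, the water channel Aqp5, was lower without overlap (7.26% of all genes), with a log2 fold change of -0.22 (adjusted p = 0.662, limma). Aqp5 and Abca3 were lower without overlap, at -0.21 and -0.17, when IFNγ replicate 3 was left out (1014 of all 7807 genes). Of 14 fibroblast and mural markers, 7 were measured, and their median against the untreated mean was -0.15, -0.02 and -0.12 on IFNγ replicates 1, 2 and 3 and 0.04, -0.06 and -0.02 on untreated replicates 1, 2 and 3. IFNγ replicate 3 was the highest IFNγ array for 1 of these 7 genes, in contrast to 21 of the 31, although this difference was not tested. The trait was not particular to the 31. That array was the highest for 20 of 33 other matrix proteins and 17 of 26 other integrin and focal adhesion genes. It was so for 14 of 33 other matrix enzymes and inhibitors and 14 of 32 TGFβ, YAP and SRF genes. Of the 7 markers, Dcn, Des, Pdpn, Twist2 and S100a4 were also counted in other lists. Of 16 leukocyte and endothelial markers, 3 had a named probe (Cd68, Csf1r and Kdr), and none of these was detected on all 6 arrays.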

How the data were processed

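RNA of 3 IFNγ-treated and 3 untreated TC-1/A9 cultures was measured. The authors deposited average bead intensity values per probe and array, not normalized, each with a detection p-value against the negative controls of the array, and a value table on the log2 scale with gene annotation. For the background treatment of these intensities, the sources used here give no setting. Quantile normalization of the log2 intensities of all 45281 probes gave the values of that table to within 4.97e-14. It holds 12421 probes, of which 11180 had 1 gene symbol and 1241 had none.

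Log2 intensities were quantile normalized, and the 13545 probes with a detection p of 0.01 or less on at least 1 array were kept. IFNγ was compared with untreated in R 4.3.3 with limma 3.58.1 (lmFit and eBayes, 2-sided), at an FDR below 0.01 (Benjamini-Hochberg, all tested probes). The script was tested on simulated data. No read depth applies, and the number of arrays limits the precision. Symbols were updated by Entrez ID (9809 probes), accession (729), symbol or synonym (637) or kept as listed (5), and each gene was represented by its brightest named probe. Values on each array are given for genes without overlap between groups and for the genes of each role with a wide spread between arrays, and all 31 are accounted for. Of other lists, up to 3 genes without overlap and with the smallest p are named. The genes and lists were chosen with earlier results of these data known, so no test over a list was made. Alternatives were other background corrections, normalizations, filters, fits, thresholds and probe choices, and each array left out. Nothing in the files ties the replicates to separate days.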

Additional observations from a re-analysis of the deposited data

How the results depend on the processing

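Under 20 other settings, and 3 more chosen after seeing the data, 0 of the 31 genes were higher, and under 4 of these settings 1 gene, Ccn2, was lower in place of 0. These were array weights (1 gene, log2 fold change -0.54, adjusted p = 2.11e-04, limma), the fit without IFNγ replicate 3 (1 gene, -0.57, adjusted p = 0.00351) and, among the added ones, array weights without that array (1 gene, -0.59, adjusted p = 3.18e-04) and normalization and filter redone without it (1 gene, -0.57, adjusted p = 0.00355). In the same order, 35, 6 and 17 of 13545 probes and 6 of 13291 probes were called lower under these settings. These shares were 0.258%, 0.0443%, 0.126% and 0.0451%, against 0.0148% with the main settings. Array weights gave IFNγ replicate 3 the lowest weight, 0.232, where the highest, of untreated replicate 3, was 2.67. With 75th-percentile centring and without IFNγ replicate 3, also added, Ccn2 had -0.60 (adjusted p = 0.157) and did not pass. Leaving out each array in turn gave 0 to 1 genes lower and 0 higher. Over all alternatives Ccn2 ranged from -0.60 to -0.32, always below 0, with adjusted p-values from 2.11e-04 to 0.996. The median of the 31 genes ranged from -0.14 to 0.02, and 18 of the 31 genes changed sign under at least 1 alternative, without passing the test there.

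In a fit that took the replicate number as a block, 0 of the 31 genes passed (Ccn2 adjusted p = 0.236, limma), and over all probes 145 were higher and 3 lower, in place of 141 and 2. Samples with the same number deviated from their group means with r = -0.19, 0.04 and -0.02. No shared deviation was seen, but with 3 arrays per group these values cannot settle whether the samples were paired. Over all probes, array weights gave 248 higher and 35 lower, 75th-percentile centring 78 and 0, a filter on detection on all 6 arrays 74 and 1, and a minimum change of 1 on the log2 scale 71 and 0. At an FDR below 0.05, 178 were higher and 7 lower. Without single arrays, 83 to 172 were higher and 0 to 6 lower. The cause of these shifts was not tested. With 3 arrays per group, changes of these genes well under 1 on the log2 scale mostly cannot be told from 0.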
